A study of Mus musculus with 13 samples.

Results

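The comparison described here is the non-additive effect of losing Tifab and miR-146a together, measured for each gene as the dKO level, less those of TIFAB_KO and miR-146a_KO, plus that of WT, and called the interaction. A value of 0 means that the shift of dKO from WT equals the sum of the single-loss shifts. It was taken over every gene whose average over the 13 libraries reached 0 log2 CPM (CPM being the reads of a gene scaled to a common library size), 11867 of the 24062 in the table, and every one of the 13 libraries entered it. At that limit Sp3os, Spib and Bcdin3d lay just inside, at 0.0012, 0.0034 and 0.0043, and Pqlc2, Hist1h2af and Dbndd1 just outside, at -0.0004, -0.0011 and -0.0013. RNA came from bone marrow cells labelled LK, the usual abbreviation for lineage-negative, Kit-positive progenitors, which the labels do not spell out. The donors of the marrow were TIFAB+/+;miR-146a+/+ (WT, 3 libraries), TIFAB-/-;miR-146a+/+ (TIFAB_KO, 3), TIFAB+/+;miR-146a-/- (miR-146a_KO, 3) or TIFAB-/-;miR-146a-/- (dKO, 4). In all 4 groups the marrow had been transplanted into syngeneic Boy/J recipients, lethally irradiated with 7.0 Gy and, 3 h later, 4.75 Gy, and ages of 2 to 5 months are given. The labels state 3 mice per group although dKO has 4 libraries, and they leave unsaid whether a library stands for its own mouse and whether host cells were removed, so p-values measure the spread between these libraries.

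TIFAB is a protein that restrains TRAF6, the ubiquitin ligase that passes signals from Toll-like and interleukin-1 receptors to NF-kB, acting through its relative TIFA. The microRNA miR-146a is induced by NF-kB and represses the messages of Traf6 and Irak1, so both genes act as brakes on the same pathway at different steps. In people both lie on the part of chromosome arm 5q that is deleted in some myelodysplastic syndromes, where blood progenitors mature poorly. The mature miR-146a and its close relative miR-146b are shown because they share the seed, bases 2 to 8, through which a microRNA recognises its targets. The sequences are from RefSeq, build GRCm38.p6, at chr11:43374435-43374456 (minus strand) and chr19:46342790-46342811 (plus strand), and the capitals mark the seed.
mmu-miR-146a-5p: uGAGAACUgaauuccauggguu
mmu-miR-146b-5p: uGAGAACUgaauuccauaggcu
These were the 2 mature mouse miRNAs in that set with this seed, so the deletion of miR-146a leaves a gene for the same seed in place. The miR-146a gene itself, Mir146, had 0 reads in all 13 libraries, which allows up to 3 reads in each, so the table holds no check of its deletion.

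Recovered library sizes ran from 7826843 to 12787982 reads. Kit ranged from 8.08 to 8.84 log2 CPM, Myb and Mpo were abundant in every library, and Ly6a (Sca-1) ranged from -0.61 to 2.42 and Cd3e from -2.57 to -0.04. TIFAB_KO replicate 3 and dKO replicate 3 were the libraries least like the others, with median correlations of 0.947 and 0.951. Reads of cytosolic ribosomal protein genes made up 5.37 to 6.23% of the 7 libraries without miR-146a and 6.37 to 9.91% of the other 6. Because these are bulk libraries, fewer cells of a type and less RNA per cell cannot be told apart in any result below.

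Tifab (chr13:56173704-56178885, minus strand) gave 5.34, 5.63 and 5.31 log2 CPM (WT) and 6.11, 6.15 and 6.01 (miR-146a_KO). It gave 3.17, 3.56 and 3.69 (TIFAB_KO) and 2.64, 2.10, 1.72 and 3.46 (dKO). Every library labelled TIFAB-/- was below every library with the gene, and 28 to 164 reads remained in each of them. What part of the gene the allele removes is not stated in the labels. Its interaction was -1.66 ± 0.43 (SE, unadjusted p = 0.00111, adjusted p = 0.599). It was lower in dKO than in TIFAB_KO by 0.99 and higher in miR-146a_KO than in WT by 0.67, and neither difference passed the test.

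No gene passed for the interaction with limma at a Benjamini-Hochberg adjusted p under 0.05, which is 0% of the 11867 tested, and the lowest adjusted p was 0.541. At an unadjusted p under 0.05 there were 502 genes (4.23%), 199 above 0 and 303 below. That share is no larger than the limit of 0.05 itself, so the count alone shows no excess of small p-values. With limma-voom weights on the recovered reads the numbers were 0 and 545. The median standard error of the interaction was 0.314 on the log2 scale, against 0.229 for TIFAB_KO minus WT, so the design resolves a difference of differences less well than a single difference. At an unadjusted p under 0.05, the contrasts that make up the interaction held 5.11% of genes (TIFAB_KO against WT), 9.53% (miR-146a_KO against WT), 1.93% (dKO against miR-146a_KO) and 18.5% (dKO against TIFAB_KO).

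In all 12 genes passed the test in at least 1 single loss. TIFAB_KO against WT called 2 (0.0169%), Tifab and H2afy, both lower. miR-146a_KO against WT called 10 (0.0843%), of which 6 rose and 4 fell. A shift is called undone in dKO where the ratio of the dKO shift to the larger single-loss shift was at most 0.5 in size, turned where it passed that limit with the opposite sign, kept where it lay between 0.5 and 1.5, and exceeded above 1.5. By these ratios 4 of the 12 were undone, 7 kept, 1 exceeded and 0 turned. Of all genes with a single-loss shift of at least 0.5, 35.6% were undone, 56.3% kept, 3.26% exceeded and 4.81% turned. The counts of undone and kept genes among the 12 are near those shares and do not set the called genes apart. The exceeded shift was that of Tifab, the deleted gene itself, at a ratio of 1.51. With each of the 13 libraries left out in turn, Lyrm7, Cmss1, Gm2a and 1700112E06Rik kept their calls in miR-146a_KO. Wdfy1 and Efcab7 lost theirs in 4 removals, those of replicates 1 and 2 of WT and replicates 2 and 3 of miR-146a_KO, and Dio2, F630028O10Rik and Vps13c without any 1 of the 6 libraries compared. TIFAB_KO against WT lost its calls of Tifab and H2afy in 9 and 8 of the 13 removals, with adjusted p up to 0.519 and 0.508, while both genes were called in dKO against miR-146a_KO. All of these shifts are taken from the same 3 WT libraries, so the ratios are a description.

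The 4 undone shifts all belonged to miR-146a_KO, and the plot of single-loss genes by library shows each. Cmss1 (chr16:57302000-57606864), named after a yeast ribosome-assembly factor, measured 4.51, 4.63 and 4.44 log2 CPM (WT), 4.64, 4.31 and 4.63 (TIFAB_KO), 1.57, 2.04 and 2.51 (miR-146a_KO) and 3.88, 3.26, 3.02 and 3.78 (dKO). The dKO libraries thus lay between the miR-146a_KO libraries and the WT libraries without meeting either. Cmss1 fell by 2.48 ± 0.27 (SE) in miR-146a_KO against WT (limma adjusted p = 0.000167), was 1.04 lower in dKO than in WT, and rose by 1.45 ± 0.25 in dKO against miR-146a_KO (adjusted p = 0.0388). That last call was lost when any of 11 of the 13 libraries was left out in turn, with adjusted p up to 0.495.

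1700112E06Rik, now Lrmda (RefSeq, chr14:22019504-23056093), which encodes a leucine-rich protein linked to melanocyte differentiation, gave 2.98, 2.67 and 2.95 (WT), 2.88, 2.83 and 2.74 (TIFAB_KO) and 0.09, 0.25 and 0.42 (miR-146a_KO). In dKO it gave 1.68, 2.67, 2.83 and 2.19, so that the 4 dKO libraries overlapped WT and stood clear of all 3 miR-146a_KO libraries. It fell by 2.61 ± 0.34 in miR-146a_KO against WT (limma adjusted p = 0.000937) and rose by 2.09 ± 0.32 in dKO against miR-146a_KO (adjusted p = 0.00832), a ratio of 0.20. The second call was lost without miR-146a_KO replicate 1 or 2 or dKO replicate 2, with limma adjusted p up to 0.0664. It was also lost with limma-voom weights on the recovered reads and with the replicate number as a block, with adjusted p up to 0.326. Its interaction was 2.14 ± 0.46 (adjusted p = 0.541).

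Efcab7 (chr4:99829198-99912788), a ciliary protein of Hedgehog signalling, measured 2.93, 3.28 and 3.60 (WT), 3.13, 3.49 and 3.59 (TIFAB_KO), 4.51, 4.68 and 4.76 (miR-146a_KO) and 3.73, 3.62, 3.43 and 3.61 (dKO). Its rise of 1.38 ± 0.22 in miR-146a_KO (limma adjusted p = 0.0148) stood at 0.33 in dKO, whose libraries overlapped WT and not miR-146a_KO, and its interaction was -1.19 ± 0.31. 2810417H13Rik, now Pclaf (RefSeq, chr9:65890323-65903551), a factor that binds the replication clamp PCNA, gave 6.86, 7.15 and 6.80 in WT and 6.17, 6.23 and 6.13 in miR-146a_KO. In dKO it gave 6.75, 6.69, 6.66 and 6.55, below every WT library and above every miR-146a_KO library. It fell by 0.77 ± 0.14 in miR-146a_KO (limma adjusted p = 0.0456), a call that 9 of the 13 removals of 1 library ended, and its interaction was 0.43 ± 0.20 (unadjusted p = 0.0401).

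**Figure D1:**
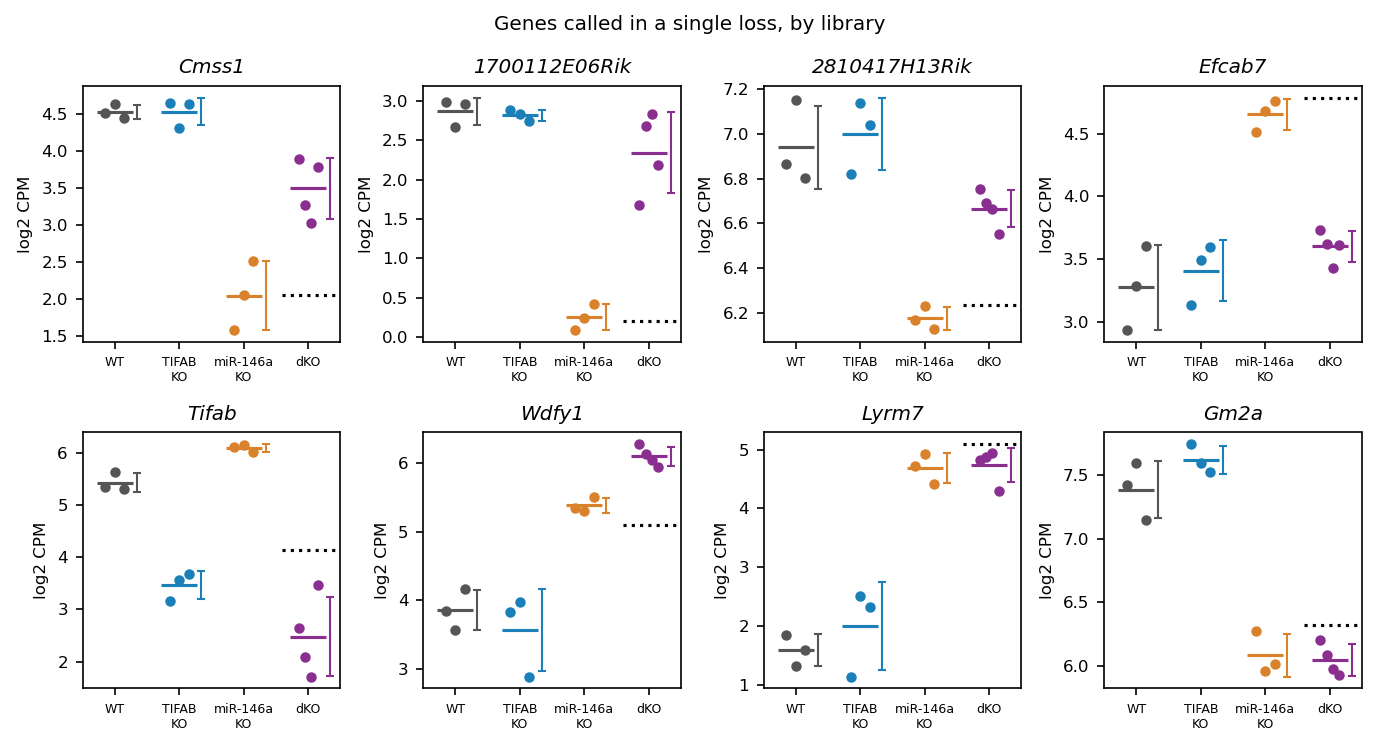
Level in each library (points, log2 CPM), with the group mean (line) and SD (bar), of 8 genes called in a single loss, by genotype. The dotted line is where dKO would lie if the single-loss shifts added up: dKO lies above it for Cmss1 (mean 3.49) and 1700112E06Rik (2.34), below it for Efcab7 (3.60) and Tifab (2.48), and above it for Wdfy1 (6.10).

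Wdfy1 (chr1:79702262-79776143), an endosomal adaptor reported to help Toll-like receptors recruit TRIF, came nearest to being exceeded among the kept shifts. It gave 3.84, 3.57 and 4.16 (WT), 3.83, 3.98 and 2.89 (TIFAB_KO), 5.35, 5.30 and 5.50 (miR-146a_KO) and 6.27, 6.13, 6.05 and 5.95 (dKO). The 4 dKO libraries were above all 9 others. Wdfy1 rose by 1.53 ± 0.24 in miR-146a_KO against WT (limma adjusted p = 0.0114) and by 2.24 ± 0.22 in dKO against WT (adjusted p = 2.72e-05), a ratio of 1.47. Its interaction of 1.01 ± 0.33 had an unadjusted p of 0.00652 and an adjusted p of 0.945.

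The other kept shifts had ratios from 0.77 to 1.03. Lyrm7 (chr11:54826866-54860916), an assembly factor of mitochondrial complex III, rose by 3.09 ± 0.32 in miR-146a_KO and 3.14 ± 0.30 in dKO. Gm2a (chr11:55098115-55113029), a lysosomal cofactor of ganglioside breakdown, fell by 1.30 ± 0.15 and 1.33 ± 0.14. Both lie on the chromosome of the deleted Mir146 (chr11:43374397-43374461), and the part of this position in their shifts was not tested. H2afy, the histone variant macroH2A1 and the neighbour of Tifab on chromosome 13, fell by 1.06 ± 0.16 in TIFAB_KO and 1.04 ± 0.15 in dKO. For these 3 genes the 95% interval of the interaction was -1.27 to 0.55, -0.71 to 0.17 and -0.52 to 0.43. Vps13c, a lipid transfer protein, rose by 1.13 ± 0.20 in miR-146a_KO and was 0.90 higher in dKO.

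Dio2 and F630028O10Rik differ from those in that both single losses and dKO lay above WT by similar amounts. Dio2 (chr12:90724552-90738438), the enzyme that activates thyroid hormone, gave 5.23, 5.39 and 5.45 (WT), 6.16, 6.74 and 6.52 (TIFAB_KO), 6.71, 6.91 and 6.42 (miR-146a_KO) and 6.75, 6.09, 6.84 and 5.86 (dKO). All 10 knockout libraries were above all 3 WT libraries, and the 3 knockout groups overlapped. It rose by 1.32 ± 0.23 in miR-146a_KO (limma adjusted p = 0.0257), was 1.11 higher in TIFAB_KO (adjusted p = 0.246) and 1.02 higher in dKO (adjusted p = 0.0883). The sum of the single shifts was 2.44 and the interaction -1.41 ± 0.32. F630028O10Rik, a locus on the X chromosome, was 1.06 higher in TIFAB_KO, rose by 1.26 in miR-146a_KO and was 1.01 higher in dKO, with an interaction of -1.31 ± 0.31.

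The loss of Tifab can be read a second time where miR-146a is already absent, as dKO against miR-146a_KO, which shares no library with TIFAB_KO against WT. It called 6 genes (0.0506%): Tifab and H2afy fell, as in TIFAB_KO, and 1700112E06Rik, Cmss1, 4930503L19Rik and Stard6 rose. The last 2 lie outside the naming rule and were chosen after their values were seen. 4930503L19Rik, an uncharacterised locus, gave 4.84, 5.24 and 4.83 (WT), 4.98, 5.21 and 4.87 (TIFAB_KO), 4.06, 4.32 and 4.09 (miR-146a_KO) and 5.44, 5.57, 5.26 and 5.47 (dKO). The miR-146a_KO libraries were below and the dKO libraries above all others. It rose by 1.28 ± 0.17 (limma adjusted p = 0.00211), a call that held in all 13 removals of 1 library and in 10 other settings, and it was 0.81 lower in miR-146a_KO than in WT and 0.46 higher in dKO, a turned shift. Its interaction of 1.23 ± 0.24 had the smallest p of all genes tested (unadjusted p = 7.72e-05, limma adjusted p = 0.541).

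Stard6, a lipid-transfer protein gene whose annotated start overlaps that of 4930503L19Rik on the opposite strand, had few reads: 26, 20 and 15 (WT), 36, 39 and 63 (TIFAB_KO), 15, 2 and 0 (miR-146a_KO) and 47, 46, 52 and 62 (dKO). Its fitted rise of 4.21 ± 0.71 (limma adjusted p = 0.0259) depends on the 0.5 read added to each value and was lost in 10 of the 13 removals. No source used here says whether the counting used strand, so reads of the overlapping genes may be shared. For the loss of miR-146a where Tifab is absent, dKO against TIFAB_KO called 4 genes (0.0337%): Wdfy1 and Lyrm7 rose by 2.53 and 2.73, and Gm2a and Rplp1, a ribosomal stalk protein, fell by 1.57 and 1.27. dKO against WT called 8 (0.0674%), of which Crip1 (-1.23), Tsc22d3 (-1.63) and Rplp1 (-1.16) were called in neither single loss; Rplp1, Crip1 and Tsc22d3 also lie outside the naming rule. Crip1 is a LIM-domain protein and Tsc22d3 a glucocorticoid-induced leucine zipper, and their calls were lost without WT replicate 1 or 2, as was that of Rplp1. Removal of 1 library moved the number called in dKO against WT to 336 (dKO replicate 4), 28 (TIFAB_KO replicate 3), 5 (WT replicate 1) or 4 (WT replicate 2). In dKO against TIFAB_KO it became 278 without dKO replicate 4 and 124 without TIFAB_KO replicate 2. The single shifts of these 3 were in the same direction in miR-146a_KO (-0.67, -1.29 and -0.81), so that by the ratios above Crip1 was exceeded (1.85) and the others kept, and their interactions were -0.32 ± 0.28, 0.38 ± 0.41 and -0.46 ± 0.28.

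Since no gene passed for the interaction, the 20 named for it are those with the smallest unadjusted p once 3 unnamed loci (4930503L19Rik, 1700112E06Rik and F630028O10Rik, all given above) were left out, from 0.000152 to 0.00127, and none of them passed. Their interactions lay above 0 for 9 and below 0 for 11. By the ratios above 16 were undone, 2 kept and 1, Tifab itself, exceeded, while Rps6ka1, a kinase downstream of ERK, had no single shift of 0.5. Of all genes with such a shift 35.6% were undone. The larger single shift was in TIFAB_KO for 14 of the 20. In 19 of them the interaction had the opposite sign to the sum of the single shifts, against 72.4% of all genes tested. The WT libraries enter that sum and the interaction with opposite signs, and the genes were picked by the interaction, so this count is a description. The same selection favours undone shifts, so the count of 16 is a description too.

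Atp1b2 (chr11:69599736-69605942), a subunit of the sodium-potassium pump, had the smallest p of the 20. It gave 7.46, 7.17 and 7.69 (WT), 6.95, 6.57 and 6.52 (TIFAB_KO), 6.66, 7.07 and 6.90 (miR-146a_KO) and 6.93, 7.40, 7.35 and 7.50 (dKO). Both single losses lay below WT, by 0.76 and 0.57, and dKO overlapped WT at 0.15 below it. Its interaction was 1.18 ± 0.25 (unadjusted p = 0.000152, limma adjusted p = 0.541), between 1.06 and 1.32 when each library was left out in turn. Rab6b, a Golgi GTPase, gave 3.72, 3.27 and 4.03 (WT), 2.88, 2.83 and 2.24 (TIFAB_KO), 2.42, 2.61 and 2.05 (miR-146a_KO) and 2.97, 3.32, 2.68 and 3.18 (dKO). Here dKO was above every miR-146a_KO library, and the sum of -2.34 compared with a dKO shift of -0.64.

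Others on the same side were Ptms, Slc38a5, Car1, Nfia, Spire1 and Ank1. Ptms (parathymosin, a chromatin-associated acidic protein) was 0.79 and 1.13 lower in the single losses and 0.27 lower in dKO. Nfia, a transcription factor that acts in erythroid commitment, was 0.63 and 0.40 lower in the single losses and 0.09 higher in dKO. Spire1, an actin nucleator, was 0.70 lower in TIFAB_KO and 0.16 higher in dKO. On the other side Slc15a2, a peptide transporter, was 1.89 and 1.07 higher in the single losses and 0.98 higher in dKO, and Napsa, an aspartic protease, was 0.72 and 0.38 higher and 0.01 higher in dKO. The plot of single and joint shifts shows the 20 genes together.

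**Figure D2:**
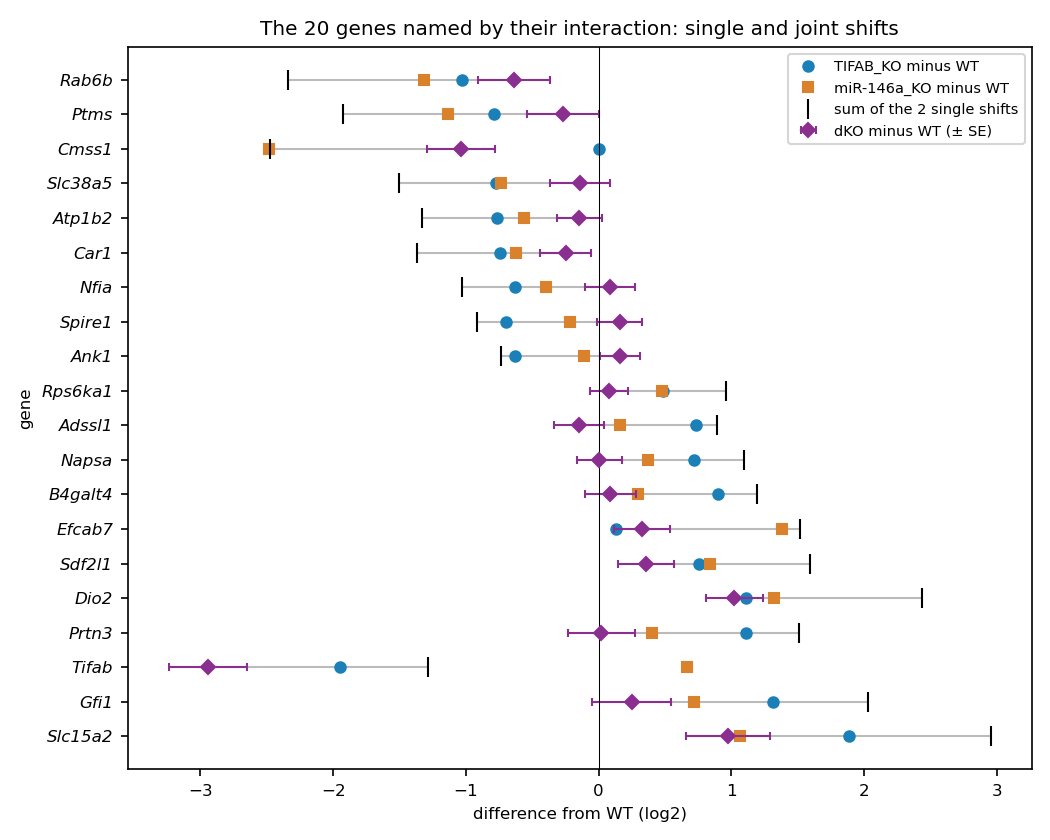
Difference from WT (log2) of the 20 genes with the smallest interaction p: TIFAB_KO (circles), miR-146a_KO (squares), dKO (diamonds with SE) and the sum of the single shifts (ticks), joined to dKO by a grey line whose length is the interaction. For 19 genes dKO lies on the 0 side of the tick, as for Atp1b2 (dKO -0.15, sum -1.33), and for Tifab it lies beyond it (dKO -2.94, sum -1.29).

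Over all genes, 2514 had a single-loss shift of at least 0.5 on the log2 scale, tested or not. Of these 896 (35.6%) were undone in dKO, 121 (4.81%) turned, 1415 (56.3%) were kept and 82 (3.26%) exceeded, and a further 716 genes shifted by 0.5 in dKO alone. Shifts that were larger in TIFAB_KO were undone in 52.2% of 1108 genes and kept in 37.4%. Shifts that were larger in miR-146a_KO were undone in 22.6% of 1406 genes and kept in 71.2%. Their shifts all use the same WT libraries. Genes entered by the larger of their single-loss shifts, so spread between the libraries of that group can also count as undone. At an unadjusted limma p under 0.05, TIFAB_KO against WT held 5.11% of genes and miR-146a_KO against WT 9.53%. The shares are therefore a description.

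A reading without shared libraries sets each loss on its 2 backgrounds side by side. For the loss of Tifab, TIFAB_KO minus WT and dKO minus miR-146a_KO had Pearson r = -0.018 and Spearman rho = -0.098 across 11867 genes, and 45.1% of genes had the same sign. For the loss of miR-146a, miR-146a_KO minus WT and dKO minus TIFAB_KO had r = 0.343 and rho = 0.386, with 67.8% of the same sign. When each library was left out in turn, r ran from -0.073 to 0.037 for Tifab and from 0.216 to 0.405 for miR-146a. Genes within a contrast share its libraries and are not independent, so no p is given.

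Genes picked on 1 background were then read on the other. At an unadjusted p under 0.01 TIFAB_KO against WT picked 164 genes (1.38%), and in dKO against miR-146a_KO 49 of them (29.9%) had the same sign, with a median shift of -0.09 in the direction of selection. The 40 genes (0.337%) picked in dKO against miR-146a_KO had the same sign in TIFAB_KO against WT for 24 (60%), with a median of 0.11, which became -0.04 when selection was at 0.05. For miR-146a, 210 of 260 genes (80.8%) picked in miR-146a_KO against WT (2.19% of all) kept their sign in dKO against TIFAB_KO, at a median of 0.30. The reverse selection of 654 genes (5.51%) gave 572 (87.5%) and 0.29.

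**Figure D3:**
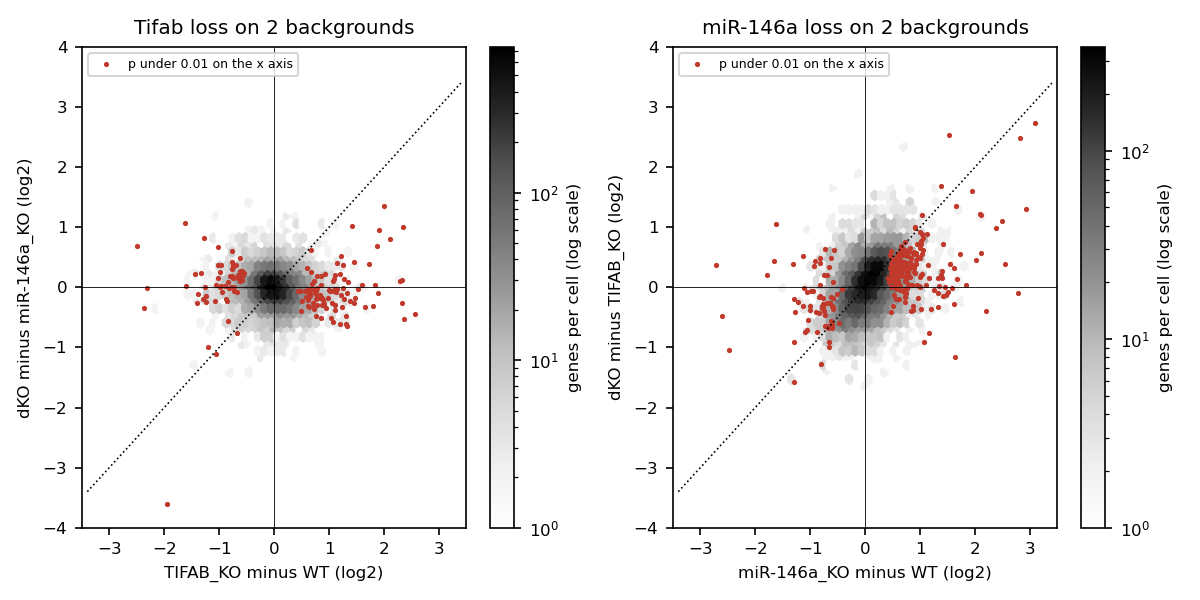
Shift (log2) of 11867 genes for the loss of Tifab (left) and of miR-146a (right), on the background with the other gene (x axis) and without it (y axis); grey shading is the number of genes, red points are genes with an unadjusted p under 0.01 on the x axis, and the dotted line is equality. The red points lie along the x axis on the left, where 29.9% of 164 keep their sign, and around a line of lower slope than equality on the right, where 80.8% of 260 do.

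Granulocyte-monocyte progenitor genes, which encode the primary granule proteases and the factors of early neutrophil and monocyte precursors, had the lowest median interaction of the 27 lists. It was -0.60, against 0.01 over all genes tested. All 26 members lay below 0, 9 of them at an unadjusted p under 0.05, where 2.55% of all genes did so on that side, and 0 were called. Their median shift from WT was 0.59 (TIFAB_KO), 0.19 (miR-146a_KO) and 0.10 (dKO). In TIFAB_KO all 26 were above WT, 14 of them at an unadjusted p under 0.05, where 2.99% of all genes were higher, whereas in dKO 17 were above and 9 below, 3 at an unadjusted p under 0.05 (9.7% of all genes). In miR-146a_KO 3 were higher at that p (7.23% of all genes). Against TIFAB_KO, dKO was lower for 23 of 26, 13 of them at an unadjusted p under 0.05 (5.93% of all genes), and against miR-146a_KO 1 member was higher at that p (0.868% of all genes). Of 16 members with a single shift of 0.5, 10 were undone (35.6% of all genes with such a shift), 5 kept (56.3%) and 1 exceeded (3.26%).

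The mean deviation of these genes from their average over the libraries was 0.20, 0.56 and 0.51 in TIFAB_KO, and 0.00, -0.21 and -0.64 in WT. It was 0.06, 0.02 and -0.29 (miR-146a_KO) and 0.03, -0.25, 0.41 and -0.42 (dKO). All 3 TIFAB_KO libraries were above WT and miR-146a_KO. The dKO libraries spread from -0.42 to 0.41, and the highest of them, replicate 3, lay above WT and miR-146a_KO and within the TIFAB_KO range. Leaving out each library in turn gave medians of -0.74 to -0.41, and without TIFAB_KO replicate 3 and dKO replicate 3 it was -0.72 with 26 of 26 still below 0. Summed over the list, TIFAB_KO held 19970 to 21563 CPM, WT 10998 to 16966, miR-146a_KO 14423 to 18130 and dKO 12517 to 17802.

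Among its members Gfi1 (chr5:107716657-107726036), a transcriptional repressor required for neutrophil formation, gave 3.64, 3.54 and 2.54 log2 CPM (WT), 4.50, 4.72 and 4.43 (TIFAB_KO), 3.62, 4.24 and 4.01 (miR-146a_KO) and 3.93, 2.91, 3.98 and 3.14 (dKO). TIFAB_KO stood above all 10 other libraries. Gfi1 was 1.31 higher than WT in TIFAB_KO, 0.72 higher in miR-146a_KO and 0.25 higher in dKO, an interaction of -1.78 ± 0.44. Prtn3 (proteinase 3, a primary granule protease) gave 8.13, 7.56 and 7.01 (WT), 8.21, 8.82 and 8.997 (TIFAB_KO), 8.29, 7.74 and 7.88 (miR-146a_KO) and 7.54, 7.07, 8.10 and 7.65 (dKO), an interaction of -1.49 ± 0.37. Ctsg (cathepsin G) and Ms4a3, a membrane protein of granulocyte precursors, were 0.88 and 1.21 higher in TIFAB_KO, and -0.08 and 0.51 from WT in dKO.

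The promoters of Prtn3, Gfi1 and Ms4a3 are shown because these named members hold motifs of the myeloid factors PU.1 or C/EBP. All 26 members of the list lay below 0, so their side does not set these genes apart. Ctsg, also named, was not among the members found with either motif. Each runs from 250 bases before to 50 after the start of the gene, from RefSeq on GRCm38.p6, in the direction of transcription: chr10:79879417-79879716 (plus), chr5:107725756-107726055 (minus) and chr19:11640802-11641101 (minus). Capitals mark GAGGAAGT (PU.1) in Prtn3 and TTGCNNAA (C/EBP) in the others.
Prtn3: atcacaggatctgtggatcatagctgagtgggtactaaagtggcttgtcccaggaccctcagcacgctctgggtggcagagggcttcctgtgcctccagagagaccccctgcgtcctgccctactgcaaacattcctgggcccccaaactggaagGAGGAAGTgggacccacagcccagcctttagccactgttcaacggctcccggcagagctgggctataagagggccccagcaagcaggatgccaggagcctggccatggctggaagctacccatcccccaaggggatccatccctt
Gfi1: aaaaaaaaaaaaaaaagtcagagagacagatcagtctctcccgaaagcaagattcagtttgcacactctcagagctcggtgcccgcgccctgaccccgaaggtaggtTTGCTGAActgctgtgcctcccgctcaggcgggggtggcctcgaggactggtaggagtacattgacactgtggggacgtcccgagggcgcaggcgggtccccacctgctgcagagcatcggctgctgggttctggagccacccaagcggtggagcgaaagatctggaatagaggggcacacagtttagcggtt
Ms4a3: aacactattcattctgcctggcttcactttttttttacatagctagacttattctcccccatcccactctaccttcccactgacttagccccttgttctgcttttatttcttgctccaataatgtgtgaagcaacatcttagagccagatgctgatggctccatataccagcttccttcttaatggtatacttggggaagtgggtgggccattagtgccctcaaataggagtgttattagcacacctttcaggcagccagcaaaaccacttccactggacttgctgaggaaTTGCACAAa
Searched on both strands in 1 such window per gene, GAGGAAGT was in 4 of 21 promoters of the list (19%) and 3.28% of 27025 promoters, and TTGCNNAA in 7 of 21 (33.3%) and 10.8%. Among the 8972 promoters of tested genes the shares were 3.33% and 8.52%. A match is a run of letters and not a measured site.

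Lists of more mature myeloid cells lay on the same side. Monocyte, macrophage and dendritic cell genes had a median interaction of -0.42, with 22 of 25 tested members below 0 and 4 at an unadjusted p under 0.05 (2.55% of all genes on that side). Their median shifts from WT were 0.19 (TIFAB_KO), 0.52 (miR-146a_KO) and 0.33 (dKO). Ccr2, the receptor of monocyte emigration, was 0.64 and 0.52 higher in the single losses and 0.40 higher in dKO, an interaction of -0.75 ± 0.29. Axl, a receptor kinase of macrophages, was 1.61, 0.75 and 0.79 higher, an interaction of -1.56 ± 0.69. Without dKO replicate 3 the median of the list was -0.83.

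Mast cell, basophil and eosinophil genes had a median of -0.57, with 14 of 21 below 0 and 5 at an unadjusted p under 0.05 (2.55% of all genes on that side). Prg2, the eosinophil major basic protein, gave 8.03, 6.91 and 5.24 (WT), 7.57, 8.75 and 9.24 (TIFAB_KO), 8.41, 7.04 and 7.16 (miR-146a_KO) and 7.62, 7.22, 7.67 and 6.37 (dKO). All 4 groups overlapped for it, and its interaction was -2.11 ± 0.74. The median of the list ran from -0.99 without WT replicate 1 to -0.21 without WT replicate 3, and was -0.87 without WT replicate 2 and -0.98 without miR-146a_KO replicate 3.

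Late granulocyte genes had a median interaction of -0.25 (13 of 18 below 0), which ran from -0.92 without TIFAB_KO replicate 1 to 0.01 without dKO replicate 4. Their median shifts from WT were 0.69, 0.41 and 0.71 in the 3 knockouts. Their summed level over the 28 of 30 genes in the table was 341 to 523 CPM in WT, 463 to 723 in TIFAB_KO, 382 to 476 in miR-146a_KO and 380 to 1083 in dKO, with Stfa1 and Stfa2 at 0 in all libraries. The corresponding ranges of the 35 of 36 monocyte, macrophage and dendritic cell genes were 844 to 1054, 1139 to 1323, 1071 to 1190 and 993 to 1296 CPM, and those of the 28 of 28 mast cell, basophil and eosinophil genes 1150 to 1519, 1446 to 1793, 1495 to 1603 and 1179 to 2081 CPM, with Tpsab1 at 0 throughout. The part of a changing mix of maturing cells in the interaction was not tested.

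Erythroid genes, which build the red cell membrane, haem and the factors that drive them, showed the opposite sign. Their median interaction was 0.38, 25 of 33 tested members lay above 0 and 10 had an unadjusted p under 0.05, where 1.68% of all genes did so on that side, with 0 called. The median shift from WT was -0.31 (TIFAB_KO), -0.11 (miR-146a_KO) and 0.08 (dKO). In TIFAB_KO 28 of 33 were below WT, 11 of them at an unadjusted p under 0.05 (2.12% of all genes), and in dKO 19 were above and 14 below. The median was between 0.25, without miR-146a_KO replicate 1, and 0.53 when each library was left out in turn.

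Car1 (chr3:14766216-14808368), a carbonic anhydrase of early red cell precursors, gave 10.54, 10.43 and 10.79 (WT), 10.00, 9.58 and 9.94 (TIFAB_KO), 9.83, 10.20 and 9.85 (miR-146a_KO) and 9.74, 10.50, 10.52 and 10.57 (dKO). Both single losses were below WT in every library, and 3 of the 4 dKO libraries were within the WT range. Its interaction was 1.12 ± 0.28. Ank1, which anchors the membrane skeleton, was 0.63 lower in TIFAB_KO and 0.16 higher in dKO, and Slc38a5, a glutamine transporter, was 0.77 lower in TIFAB_KO, 0.74 lower in miR-146a_KO and 0.14 lower in dKO. The haemoglobin genes Hba-a1, Hba-a2, Hbb-bs, Hbb-bt and Hbb-b1 were listed at 0 reads in every library. The letters AGATAA, bound by the erythroid factor that Gata1 encodes, were on either strand of 7 of 23 promoters of the list (30.4%) and 11.4% of all 27025. Among the 8972 promoters of tested genes the share was 6.46%.

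**Figure D4:**
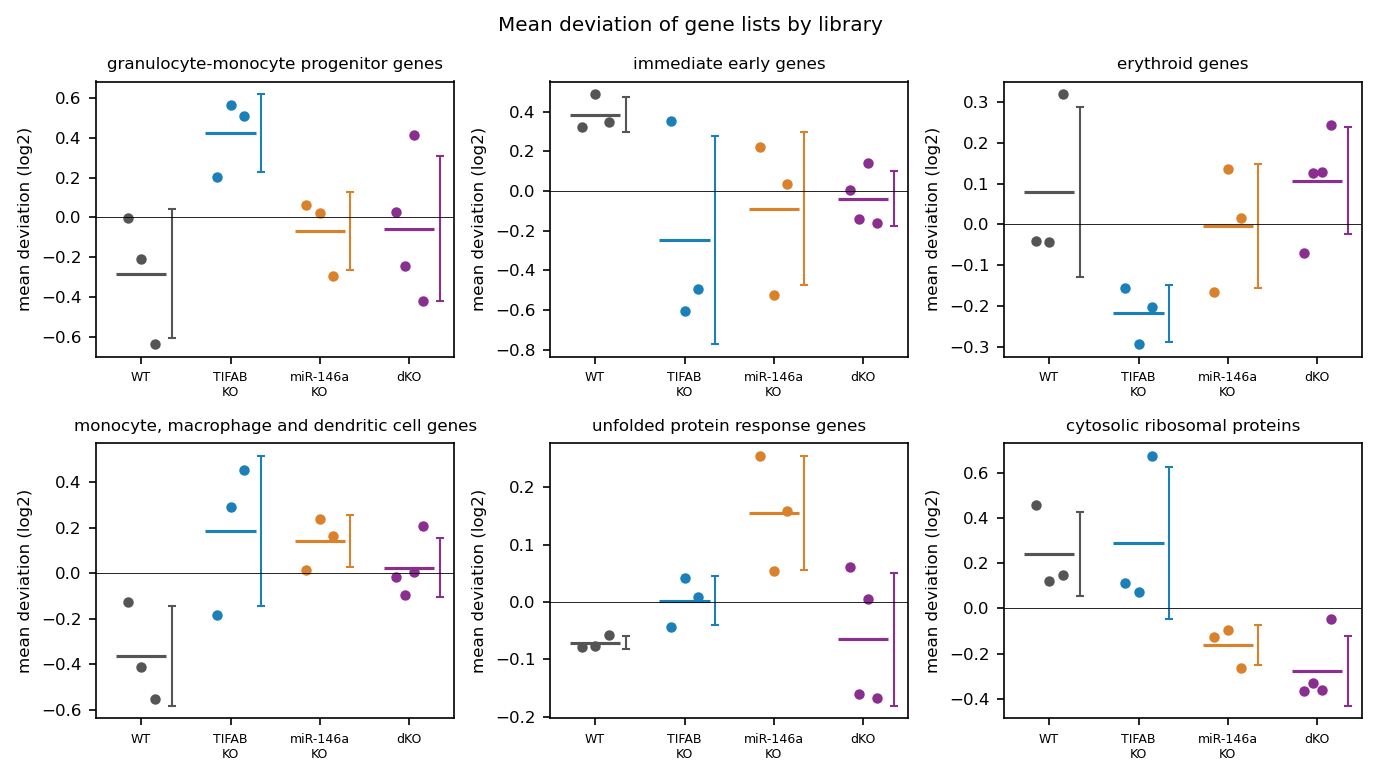
Mean deviation of 6 gene lists from their average over the libraries (log2), by library (points), with group mean (line) and SD (bar). For granulocyte-monocyte progenitor genes TIFAB_KO (0.20 to 0.56) lies above WT and miR-146a_KO and dKO spreads from -0.42 to 0.41; for erythroid genes TIFAB_KO lies from -0.29 to -0.16 and dKO from -0.07 to 0.24.

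Immediate early genes, transcription factors and phosphatases switched on within minutes of a stimulus, had the highest median interaction, 0.60. Of 36 tested members 33 were above 0, as were 51.2% of all genes, and 12 had an unadjusted p under 0.05, where 1.68% of all genes did so on that side, with 0 called. Here each single loss and dKO were below WT by similar medians, -0.61 (TIFAB_KO), -0.45 (miR-146a_KO) and -0.45 (dKO), against a median sum of single shifts of -1.14. Of 25 members with a single shift of 0.5, 17 were kept (56.3% of all genes with such a shift) and 8 undone (35.6%). The other 11 members had no such shift.

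The libraries of TIFAB_KO were far apart in this list: its mean deviation was 0.35, -0.60 and -0.50, while WT had 0.32, 0.49 and 0.35, miR-146a_KO 0.22, -0.52 and 0.03, and dKO 0.01, -0.14, 0.14 and -0.16. TIFAB_KO replicate 1 was at the level of WT, and without it the median interaction of the list was 0.89. Egr3 (chr14:70077203-70082614), a zinc finger factor, gave 3.74, 4.37 and 3.87 (WT), 4.23, 2.16 and 0.75 (TIFAB_KO), 2.26, 1.98 and 2.88 (miR-146a_KO) and 3.25, 2.98, 4.01 and 3.53 (dKO). Its interaction was 2.68 ± 0.77 (limma adjusted p = 0.701), and 3.61 (adjusted p = 0.0308) without TIFAB_KO replicate 1, the single call for the interaction over all settings run. Nr4a1, an orphan nuclear receptor, gave 6.50, 6.79 and 6.23 (WT), 6.28, 4.52 and 4.88 (TIFAB_KO), 5.43, 3.94 and 5.19 (miR-146a_KO) and 5.45, 5.40, 5.24 and 6.59 (dKO), an interaction of 2.09 ± 0.57.

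NF-kB response and feedback genes, which the pathway that both lost genes restrain switches on, had a median interaction of 0.37 with 25 of 37 above 0 (51.2% of all genes) and 4 at an unadjusted p under 0.05 (1.68% of all genes on that side). Their median shift was -0.31 (TIFAB_KO), -0.11 (miR-146a_KO) and -0.17 (dKO), so that none of the knockouts had a median above WT. Tnfaip3 (A20, the deubiquitinase that shuts the pathway down) gave 8.41, 8.995 and 8.87 (WT), 8.68, 6.57 and 6.69 (TIFAB_KO), 8.25, 7.33 and 8.05 (miR-146a_KO) and 7.97, 7.72, 8.92 and 7.80 (dKO). Its interaction was 1.67 ± 0.57. The inhibitors Nfkbiz and Nfkbia were 1.26 and 0.88 lower in TIFAB_KO and 0.56 and 0.31 lower in dKO. The median of the list was 0.16 without dKO replicate 3, 0.21 without TIFAB_KO replicate 2 and 0.04 without TIFAB_KO replicate 3 and dKO replicate 3 together.

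Components of the signalling pathway itself, from Toll-like receptors through TRAF6 to NF-kB, had a median interaction of 0.02, with 23 of 44 above and 21 below 0. Without TIFAB_KO replicate 3 the median was -0.14, and without dKO replicate 3 it was -0.10. The ligase Traf6 gave 7.08, 7.22 and 7.47 (WT), 7.58, 7.08 and 6.63 (TIFAB_KO), 7.31, 7.60 and 7.32 (miR-146a_KO) and 7.52, 7.58, 7.46 and 7.08 (dKO), so that all 4 groups overlapped. Its interaction was 0.16 with a 95% interval of -0.42 to 0.74. That of the kinase Irak1 was -0.13 (-0.49 to 0.24) and that of the adaptor Tifa -0.32 (-0.94 to 0.30). The receptor adaptors Myd88 and Ticam2 had interactions of -0.75 ± 0.27 and -0.67 ± 0.28: Myd88 was 0.58 and 0.44 higher in the single losses and 0.27 higher in dKO.

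Reported targets of miR-146a had a median interaction of -0.10, with 8 of 12 tested members below 0 and 0 at an unadjusted p under 0.05. The median was 0.02 without WT replicate 3. Their median shift was 0.16 in miR-146a_KO, 0.12 in dKO against TIFAB_KO and 0.08 in TIFAB_KO. Over all genes tested the same medians were 0.09, 0.09 and -0.01. Mouse orthologs of genes of the human del(5q) region had a median interaction of 0.07, with 22 of 33 above 0, and of 0.01 without dKO replicate 2. That list holds Tifab, H2afy, Lyrm7 and Gm2a, which were described above.

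Genes of the unfolded protein response, the chaperones and sensors of the endoplasmic reticulum, had a median interaction of -0.22, with 23 of 29 below 0 and 7 at an unadjusted p under 0.05 (2.55% of all genes on that side). Their median shifts were 0.14 (TIFAB_KO), 0.29 (miR-146a_KO) and 0.09 (dKO). In dKO 26 of 29 were lower than in miR-146a_KO, where 47.8% of all genes were higher. Sdf2l1, part of a chaperone complex, gave 5.78, 6.08 and 6.49 (WT), 6.87, 6.55 and 7.20 (TIFAB_KO), 6.94, 7.18 and 6.74 (miR-146a_KO) and 6.72, 6.26, 6.87 and 6.04 (dKO). Every single-loss library was above every WT library and dKO overlapped all 3 groups, an interaction of -1.24 ± 0.31. Hyou1, Manf and P4hb had interactions of -0.58, -0.61 and -0.62. Without TIFAB_KO replicate 2 the median was -0.14, and without TIFAB_KO replicate 3 and dKO replicate 3 it was -0.34.

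Interferon response genes had a median of -0.27, with 32 of 47 below 0 and 4 at an unadjusted p under 0.05 (2.55% of all genes on that side), and median shifts of 0.20, 0.22 and 0.16 in TIFAB_KO, miR-146a_KO and dKO. In dKO 32 of 47 were above WT, 12 of them at an unadjusted p under 0.05 (9.7% of all genes), and 0 were lower at that p. The immunity-related GTPase Irgm2 was 1.32 and 1.84 higher in the single losses and 1.35 higher in dKO, and Usp18, which removes the ubiquitin-like ISG15, was 0.79, 0.55 and 0.18 higher. The immunoproteasome subunits Psmb8 and Psmb9 were 0.35 and 0.44 higher in TIFAB_KO and 0.31 and 0.47 lower in dKO. Medians of the list ran from -0.36 to -0.11, the latter without TIFAB_KO replicate 2, and were -0.14 without WT replicate 1 or dKO replicate 4 and -0.17 without dKO replicate 2. Glycolysis genes had a median of -0.25 (17 of 23 below 0), which was -0.16 without WT replicate 2, and Pgam1, Hk3 and Gpi1 had interactions of -0.65, -0.70 and -0.42. Replication-dependent histone genes had a median of -0.32 (25 of 39 below 0), which was -0.08 without TIFAB_KO replicate 3 and -0.54 without TIFAB_KO replicate 1.

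Among cytosolic ribosomal proteins, 15 of the 21 with a single shift of 0.5 were kept in dKO (56.3% of all such genes), 5 exceeded (3.26%) and 1 undone (35.6%). Their median shift was 0.03 (TIFAB_KO), -0.38 (miR-146a_KO) and -0.52 (dKO), with 75 of 77 below WT in miR-146a_KO, 34 of them at an unadjusted p under 0.05 (2.3% of all genes), and 71 of 77 in dKO, 49 of them at that p (4.36% of all genes). Against TIFAB_KO, dKO was lower for 74 of 77, where 60.1% of all genes were higher. Their median interaction was -0.14, with 57 of 77 below 0 and 0 at an unadjusted p under 0.05, and it ran from -0.23 without WT replicate 1 to 0.06 without TIFAB_KO replicate 3, the library with the highest level of these genes. Nuclear respiratory chain genes had shifts of -0.00, -0.20 and -0.21 and a median interaction of -0.04, which became 0.13 without that library.

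The other lists had medians between -0.36 and 0.21, and each moved by over 1.5 times when 1 library was left out. B-lineage genes, at -0.36 with 10 of 12 below 0, were at -0.07 without dKO replicate 3 and at -0.67 without dKO replicate 1. Targets of p53 were at 0.21 with 19 of 25 above 0, and at 0.02 without TIFAB_KO replicate 3. Stem cell and multipotent progenitor genes were at 0.17, although Prom1 within them had an interaction of -2.18 ± 0.62, being 2.29 and 1.26 higher in the single losses and 1.37 higher in dKO. Genes of S phase and of G2 and mitosis were at -0.07 and 0.05. Heat shock chaperones, cholesterol synthesis, apoptosis and survival, megakaryocyte and platelet, T and NK cell, and stromal and endothelial genes were at -0.07, 0.17, 0.14, 0.15, -0.07 and -0.02.

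**Figure D5:**
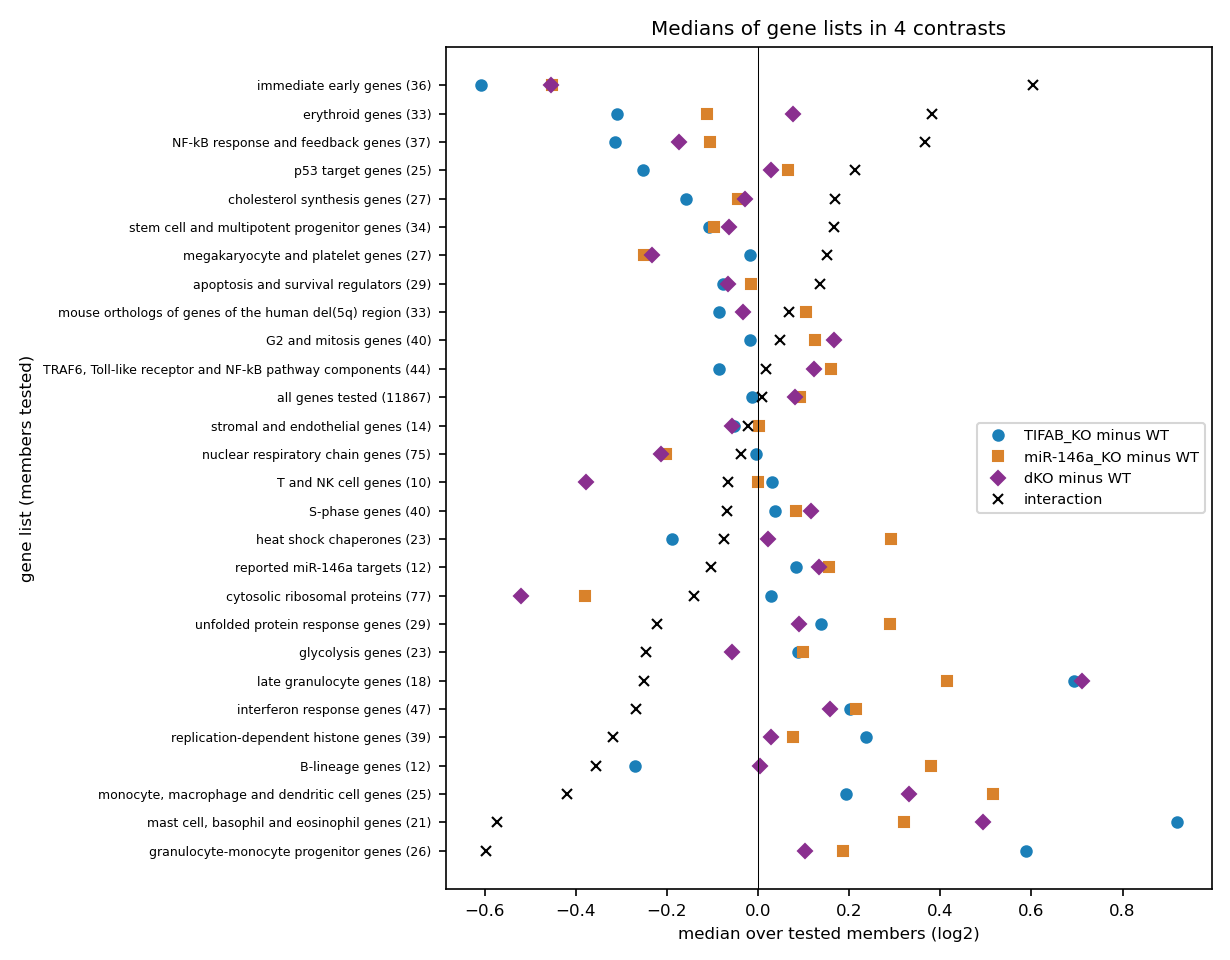
Median over the tested members of each gene list (rows, number tested in brackets) of the shift from WT in TIFAB_KO (circles), miR-146a_KO (squares) and dKO (diamonds) and of the interaction (crosses), on the log2 scale. The interaction runs from -0.60 for granulocyte-monocyte progenitor genes to 0.60 for immediate early genes, with all genes tested at 0.01.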

How the data were processed

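LK marrow cells of 13 transplanted samples were profiled by RNA-seq after amplification with the Ovation kit and Nextera XT library preparation, per the labels' protocols. The authors deposited log2 CPM per gene and library, made with TopHat, mm10, featureCounts and limma per the submitters' processing notes; no source used here gives their versions. The deposited log2 values have the form that voom gives, 0.5 read added per gene and 1 per library total: whole reads were recovered for 100.0% of values within 0.01 read, which gave the library totals. Of 24062 rows 4055 held no read and 27 had a date where the symbol should be, and all were kept; 22683 (94.3%) matched GENCODE M21 by symbol for positions.

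limma 3.58.1 in R 4.3.3 was fitted to the deposited values over all 13 libraries, with 1 mean per group, a variance trend, residual degrees of freedom of 9 and prior degrees of freedom of 9.53. Genes averaging 0 log2 CPM or more were tested, and called at a Benjamini-Hochberg adjusted p under 0.05 within each contrast; errors of contrasts are SE. The script was tested on simulated data. Named were Tifab, Mir146, Traf6, Irak1 and Tifa, every gene called in a single loss, the 20 genes of smallest interaction p averaging 1 log2 CPM or more (3 unnamed loci left out), and up to 4 members per list at an unadjusted p under 0.05; dKO calls outside these are named as such. The members and the 27 lists were chosen with earlier results of these data known. Lists are described by counts and medians without a test. Same replicate numbers do not mark shared animals or batches in the labels. Alternatives varied the filter, normalization, variance model, weights, pairing, threshold and libraries.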

Additional observations from a re-analysis of the deposited data

Results flagged for a closer look

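Within the 4 dKO libraries, 9 of 107 values examined had 1 library far from the other 3, by a rule that chance meets in about 1 of 20 such groups. Replicate 1 was the lowest for Car1, at 9.74 log2 CPM against 10.50, 10.52 and 10.57, and for Bcl11a, a factor of lymphoid and erythroid development, at 7.70 against 7.81, 7.82 and 7.82, and the highest for the chaperone-related Manf, at 5.27 against 4.98, 4.99 and 5.01. Replicate 3 was the highest for the NF-kB inhibitor Nfkbia, at 6.71 against 5.58, 5.64 and 5.75, and for the histone gene Hist1h2ai, at 1.86 against 1.27, 1.28 and 1.30. The same replicate was the lowest for the interferon-induced Usp18, at 0.74 against 1.98, 2.05 and 2.13, and in the mean deviation of S-phase genes, at -0.09 against 0.04, 0.06 and 0.06. Replicate 4 was the highest for Nr4a1, at 6.59 against 5.24, 5.40 and 5.45, and in the mean deviation of cytosolic ribosomal proteins, at -0.05 against -0.37, -0.36 and -0.33.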

How the results depend on the processing

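The interaction called 0 genes under every setting run except without TIFAB_KO replicate 1, which called 1 (Egr3), and 364 to 970 genes had an unadjusted p under 0.05. TIFAB_KO against WT called 2 genes, but 0 with no filter, with quantile normalization and with no variance trend, 5 with library weights, and 0 to 44 (the latter without TIFAB_KO replicate 1) with each library left out. dKO against miR-146a_KO called 6, 3 with no variance trend, and 2 (without miR-146a_KO replicate 2) to 5 with each library left out. miR-146a_KO against WT called 10, 5 with no variance trend, 213 with library weights, and 4 to 12 with each library left out. dKO against TIFAB_KO called 4, 7 with no filter, 9 at an adjusted p under 0.1, and 3 to 278 (without dKO replicate 4) with each library left out. dKO against WT called 8, 4 with no variance trend, 792 with library weights, 26 at an adjusted p under 0.1, and 4 to 336 (without dKO replicate 4) with each library left out. The cause of these moves was not tested. The median in TIFAB_KO against WT of genes picked in dKO against miR-146a_KO, 0.11, was -0.0376 with selection at an unadjusted p under 0.05, -0.0409 without TIFAB_KO replicate 3 and dKO replicate 3, and -0.0549 (without dKO replicate 3) to 0.26 with each library left out. The other such medians ran from -0.18 to 0.01 (picked in TIFAB_KO against WT), 0.16 to 0.44 (in miR-146a_KO against WT) and 0.21 to 0.37 (in dKO against TIFAB_KO).

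With the replicate number as a block, which leaves out dKO replicate 4, dKO against miR-146a_KO called 3 genes, dKO against TIFAB_KO 146 and dKO against WT 281, and the interaction 0. Samples with the same number did not deviate together: their correlations had a median of -0.023 over 18 pairs (2 over 0.1), and other pairs a median of 0.007. Among named genes the interaction of Traf6 ran from -0.0695 (without TIFAB_KO replicate 3) to 0.4028 with each library left out and was -0.0868 without that and dKO replicate 3. That of H2afy was 0.0244 with library weights, 0.0334 with the replicate block and -0.1455 to 0.12 with each library left out (0.05 without WT replicate 1, 0.03 without dKO replicate 4), and that of Vps13c ran from -0.4943 to 0.0334 (without TIFAB_KO replicate 2). None of these differed from 0 by the test. Removal of TIFAB_KO replicate 3 and dKO replicate 3 together was chosen after seeing the data. The planned edgeR and DESeq2 fits were not run, and limma-voom on the recovered reads took their place. Groups of 3 and 4 libraries limit the precision, and the median standard error of the interaction was 0.314. Interactions as large as those of Egr3 (2.68 ± 0.77) and Stard6 (3.08 ± 1.03) did not pass over all 13 libraries. Their standard errors were above that median, and the part of group size in these outcomes was not tested.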
